A study of Mus musculus with 18 samples.

Results

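A set of 10 genes of the smooth muscle contractile machinery was followed tumor by tumor in mouse small cell lung cancer: the actins Acta2 and Actg2, the actin-binding proteins Tagln and Cnn1, the tropomyosins Tpm1 and Tpm2, the myosin chains Myl9 and Myh11, the intermediate filament protein Des and the coactivator Myocd. They were taken by name from the 46078 genes counted, with earlier results of these data known. Their chromatin was read from the 37 ATAC-seq peaks, of 111664 in all, that overlap a span from 5000 bp upstream of the gene start to the gene end. Tumors of 3 genotypes were profiled with 3 RNA-seq and 3 ATAC-seq libraries each, 18 libraries in all, and each genotype is represented by separate animals. All mice carried conditional alleles of Rb1, Trp53 and, as a further Rb family gene, Rbl1 by the labels or Rbl2 by the Results, together with a tdTomato reporter, on a mixed background. Cre was delivered into the airway by adenovirus at 8 weeks of age and tumors were taken after 28 more weeks, so every group, TKO included, lacks the same tumor suppressors. TKO;Carm1KO mice carried in addition a conditional allele of Carm1, an arginine methyltransferase (CARM1 knockout below). TKO;NfibR388K mice carried a germline R388K substitution in the transcription factor NFIB, at the arginine methylated by CARM1, so that in these mice the stroma is mutant as well (NFIB mutant below). The Methods describe cells sorted for tdTomato, whereas other passages name tumor biopsies or cancer cell lines.

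Contractile smooth muscle cells and activated fibroblasts, known as myofibroblasts, pull on their surroundings with actin filaments of smooth muscle type, which slide along smooth muscle or non-muscle myosin. Tropomyosin, calponin and transgelin lie along these filaments. Most of the genes share a control: serum response factor (SRF) binds a short element, the CArG box, and is joined there either by myocardin (Myocd), the coactivator of differentiated smooth muscle, or by the myocardin-related factors Mrtfa and Mrtfb, which enter the nucleus when actin is polymerised. Acta2 and Tagln mark myofibroblasts and smooth muscle alike, whereas Myh11 is restricted to smooth muscle and Des marks muscle cells.

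CArG boxes and near matches to them (10 letters of which at most 1 differs from the CArG pattern) were searched because they are the known meeting point of the members' regulation. RefSeq promoters (GRCm38.p6, 250 bases before to 50 after the start) were at hand for 6 of the 10 genes, namely Acta2, Myl9, Cnn1, Tpm1, Tpm2 and Des. The matches are shown 5′ to 3′ on the strand of the gene, each with 10 bases on either side and the 10 matching letters in capitals.
Acta2, chr19:34255438-34255467 (minus strand), 84 bases before the RefSeq start: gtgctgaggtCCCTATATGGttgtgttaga
Acta2, chr19:34255388-34255417 (minus strand), 34 bases before the start: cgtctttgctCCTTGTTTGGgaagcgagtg
Myl9, chr2:156775293-156775322 (plus strand), 161 bases before the start: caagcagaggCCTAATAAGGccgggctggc
Myl9, chr2:156775355-156775384 (plus strand), 99 bases before the start: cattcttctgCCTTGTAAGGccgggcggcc
Tpm1, chr9:67049415-67049444 (minus strand), 221 bases before the start: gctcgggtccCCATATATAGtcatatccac
Tpm1, chr9:67049274-67049303 (minus strand), 80 bases before the start: acaagcttttCCAAAAAAGTattggctgtc
Cnn1, chr9:22100116-22100145 (plus strand), in the peak 922 bp into the gene: agccgccgcgCCTTATAAGGcggccttggg

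Of these, the element of Myl9 at 161 bases and that of Cnn1 are exact CArG boxes, and the others have 1 letter that differs. An exact box was found in 1 of the 6 promoters and in 535 of all 32851 promoters (1.63%), and a box with at most 1 differing letter in 3 of 6 and in 21.1% of all. All 6 promoter matches lie inside the ATAC-seq peak over the start of their gene. A match of letters is a description and does not show that SRF was bound.

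RNA-seq libraries held between 15848866 and 20915057 counts on genes, and ATAC-seq libraries between 26917178 and 47653979 counts on peaks. Levels are given in CPM, counts scaled to a common library size after normalisation of the libraries by edgeR's TMM method. On this scale 3 counts in a library correspond to 0.131 to 0.203 CPM in RNA-seq (counting error only). Below 3 counts a gene was taken as not detected. Genotypes were compared by edgeR's quasi-likelihood test over all features, and calls needed an adjusted p below 0.1 and, in either direction, a log2 difference of 0.8 or more in RNA and 0.5 or more in peaks. In RNA-seq, 38.8% of 15514 tested genes were called in CARM1 knockout against TKO (20.5% higher, 18.3% lower) and 45.8% in NFIB mutant against TKO (22.3% higher, 23.5% lower). Scaling by library totals alone shifts the median over all genes (log2 fold change) from -0.03 to -0.30 and from -0.05 to -0.37, and the higher share of the calls from 52.9 to 39.4% and from 48.7 to 35.8%. Reads outside annotated genes were 9.995 to 12.2% in TKO and 3.65 to 5.17% in the mutants. Counts of the whole Carm1 gene overlapped between CARM1 knockout (50.8 to 79.1 CPM) and TKO (44.5 to 103 CPM), a count that includes exons a conditional allele keeps and therefore does not check the label. Nfib fell from 420 to 580 CPM in TKO to 74.5 to 216 CPM in CARM1 knockout and 83.3 to 105 CPM in NFIB mutant tumors.

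Most filament genes of the contractile machinery were far higher in both mutants than in TKO, while Myocd, Myh11 and Des stayed under 10 CPM in all libraries. Actg2 and Cnn1, listed below with Myh11 among the smooth muscle markers, were among the genes that rose. Des, at its low level, was higher in every NFIB mutant library than in any TKO library. In CARM1 knockout against TKO, 8 of the 10 members were called, all higher, against 20.5% of all genes called higher. In NFIB mutant against TKO, 6 of 10 were called, all higher, against 22.3% of all genes. Acta2, Tagln, Cnn1, Tpm1 and Tpm2 were higher in every mutant library than in any TKO library, which was the case for 22.3% of all tested genes. Actg2 was so in all but NFIB mutant replicate 1, which held 1 count, as TKO replicates 2 and 3 did. The median log2 fold change of the 9 members tested was 6.02 in CARM1 knockout and 4.92 in NFIB mutant, beside -0.03 and -0.05 over all genes. Setting Actg2 to its lower bound (7.45 and 6.58) cannot move these medians, as the bound lies above them. Only 4 members (Tagln, Myl9, Tpm1 and Tpm2) had enough counts in all 3 TKO libraries to pass the filter on low counts from TKO alone, so most of the other tested members entered through the mutants in which they are high. Bulk libraries cannot tell more cells of a contractile type from more RNA per cell.

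**Figure D1:**
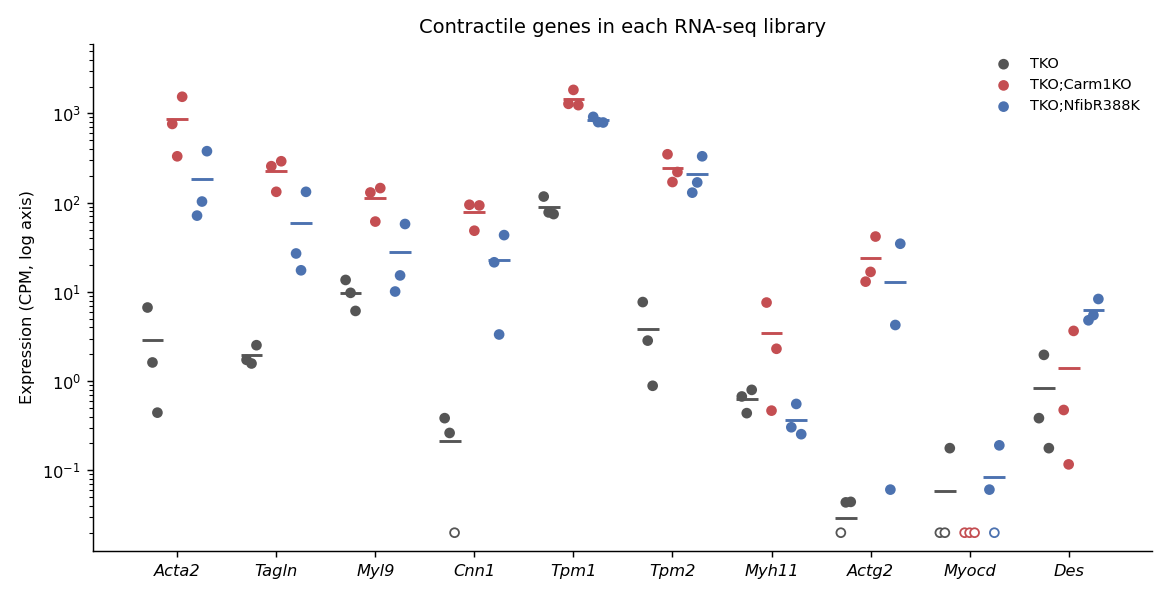
Expression of the 10 contractile genes in the 9 RNA-seq libraries (CPM on a log axis), with 1 point per library and a line at the mean of the genotype; open points are libraries with 0 counts, drawn at 0.02 CPM. Acta2, Tagln, Cnn1, Tpm1 and Tpm2 have all 6 mutant libraries clearly above all 3 TKO libraries, Actg2 has 1 NFIB mutant library at the TKO level, and Myocd lies at or near 0 throughout.

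Acta2, alpha smooth muscle actin, was counted at 6.68, 1.62 and 0.443 CPM in the TKO libraries. It reached 762, 331 and 1537 CPM in CARM1 knockout and 71.5, 103 and 377 CPM in NFIB mutant tumors. The genotypes did not overlap between TKO and either mutant, and the lowest mutant library stood above the highest TKO library by a wide margin. The log2 fold change was 8.24 ± 1.36 (SE) in CARM1 knockout (adjusted p = 0.00418, edgeR) and 5.98 ± 1.24 in NFIB mutant (adjusted p = 0.00772). Single libraries move the size: without TKO replicate 1 the values are 9.74 and 7.48, without NFIB mutant replicate 3 the latter is 4.92, and the call holds in all of these.

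Actg2, gamma smooth muscle actin of visceral muscle, had 0, 1 and 1 counts in TKO and 192, 287 and 742 counts (13.02, 16.7 and 41.7 CPM) in CARM1 knockout. In NFIB mutant tumors it had 1, 69 and 545 counts (0.061, 4.25 and 34.6 CPM). NFIB mutant replicate 1 was thus at the TKO level. With only 2 counts in all of TKO, the pooled counts were 814-fold higher in CARM1 knockout (95% exact counting interval 225 to 6728) and 421-fold higher in NFIB mutant (116 to 3483). These intervals hold counting error alone and leave out the spread between tumors. The fitted log2 fold change was 9.34 ± 2.165 (SE) in CARM1 knockout and 8.46 ± 2.11 in NFIB mutant. Both comparisons were called (adjusted p = 0.0147 and 0.0155, edgeR). Reads shared between the near-identical actin genes may be missing from or misplaced among them, and this part of the levels was not tested.

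Tagln, transgelin or SM22 alpha, was steady in TKO at 1.73, 1.57 and 2.53 CPM. It stood at 256, 132 and 291 CPM in CARM1 knockout and at 26.9, 17.4 and 132 CPM in NFIB mutant tumors. All 3 CARM1 knockout libraries were at or above the highest NFIB mutant library, though replicate 2 of the former and replicate 3 of the latter nearly coincide. Its log2 fold change was 6.86 ± 0.92 (adjusted p = 0.0021) and 4.92 ± 0.85 (adjusted p = 0.00387), the latter 3.52 without NFIB mutant replicate 3. The annotated antisense gene Gm48529 shares 3627 bases with Tagln, and the sources used here do not say whether the counting used strand.

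Cnn1, calponin 1, an actin-binding inhibitor of the myosin ATPase, had 8, 6 and 0 counts in TKO (0.384, 0.262 and 0 CPM). It had 94.7, 48.5 and 93.1 CPM in CARM1 knockout and 21.5, 3.33 and 43.3 CPM in NFIB mutant tumors. The 3 genotypes did not overlap, NFIB mutant lying between TKO and CARM1 knockout. The log2 fold change was 8.48 ± 1.32 (adjusted p = 0.00344) and 6.69 ± 1.24 (adjusted p = 0.00512).

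Tpm1, which encodes alpha-tropomyosin in muscle and non-muscle forms, had the highest level per kb of the members in TKO. Its libraries held 117, 77.7 and 74.4 CPM in TKO, 1281, 1835 and 1238 CPM in CARM1 knockout and 915, 798 and 791 CPM in NFIB mutant tumors. Every mutant library stood far above TKO, with a log2 fold change of 4.02 ± 0.28 (adjusted p = 0.000331) and 3.22 ± 0.27 (adjusted p = 0.000323). Tpm2, beta-tropomyosin, stood at 7.69, 2.84 and 0.886 CPM in TKO, at 348, 170 and 220 CPM in CARM1 knockout and at 129, 168 and 331 CPM in NFIB mutant tumors. The mutants overlapped fully with each other for Tpm2, and its log2 fold change was nearly equal in both, 6.02 ± 0.86 (adjusted p = 0.00255) and 5.78 ± 0.85 (adjusted p = 0.0021).

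Myl9, the regulatory light chain of smooth muscle myosin, had a larger fitted difference between the mutants than the tropomyosins, though none was called between them. Its nearest libraries of the 2 mutants (61.4 and 57.6 CPM) nearly coincided. TKO libraries had 13.6, 9.75 and 6.12 CPM, CARM1 knockout 130, 61.4 and 146 CPM and NFIB mutant 10.1, 15.3 and 57.6 CPM. CARM1 knockout lay wholly above TKO (log2 fold change 3.52 ± 0.73, adjusted p = 0.00981), whereas NFIB mutant replicate 1 fell among the TKO libraries. The NFIB mutant difference of 1.49 ± 0.68 was not called (adjusted p = 0.107) and is 0.38 without replicate 3 of that genotype. It was called in 3 alternatives, namely by DESeq2 (adjusted p = 0.0773), without NFIB mutant replicate 1 and without NFIB mutant replicate 2.

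Myh11, the smooth muscle myosin heavy chain, had 0.673, 0.437 and 0.798 CPM in TKO, 7.59, 0.467 and 2.30 CPM in CARM1 knockout and 0.304, 0.555 and 0.254 CPM in NFIB mutant tumors. It was called higher in CARM1 knockout (log2 fold change 2.43 ± 0.92, adjusted p = 0.0736), yet the libraries overlapped with TKO and the level was low throughout. The call rested on few libraries: without CARM1 knockout replicate 1 the value is 1.12 (adjusted p = 0.326), and it was also lost when any 1 of the TKO libraries was left out. In NFIB mutant tumors the difference was -0.77 ± 0.92 (adjusted p = 0.519).

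Des, desmin, a muscle intermediate filament protein, had 0.384, 1.97 and 0.177 CPM in TKO, 0.474, 0.117 and 3.65 CPM in CARM1 knockout and 4.80, 5.49 and 8.32 CPM in NFIB mutant tumors. NFIB mutant libraries were all higher than those of TKO and of CARM1 knockout. The difference to TKO, 2.87 ± 1.31, was just short of the threshold (adjusted p = 0.107) and was called in 5 of its 15 alternatives, 1 of them DESeq2 (adjusted p = 0.0369) and 3 that leave out TKO replicate 2 or CARM1 knockout replicate 2 or 3. In CARM1 knockout, the difference of 0.74 ± 1.24 (adjusted p = 0.659) took the opposite sign, -1.46, without replicate 3. An antisense gene, Gm15179, shares 368 bases with Des.

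Myocd did not pass the filter. It had 0, 0 and 4 counts in TKO, none in CARM1 knockout and 1, 0 and 3 counts in NFIB mutant tumors, at or about the detection limit in each library, so no fold change is given. The coactivator typical of differentiated smooth muscle thus had at most 4 counts in any library, and a difference between genotypes was not detectable at this depth.

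**Figure D2:**
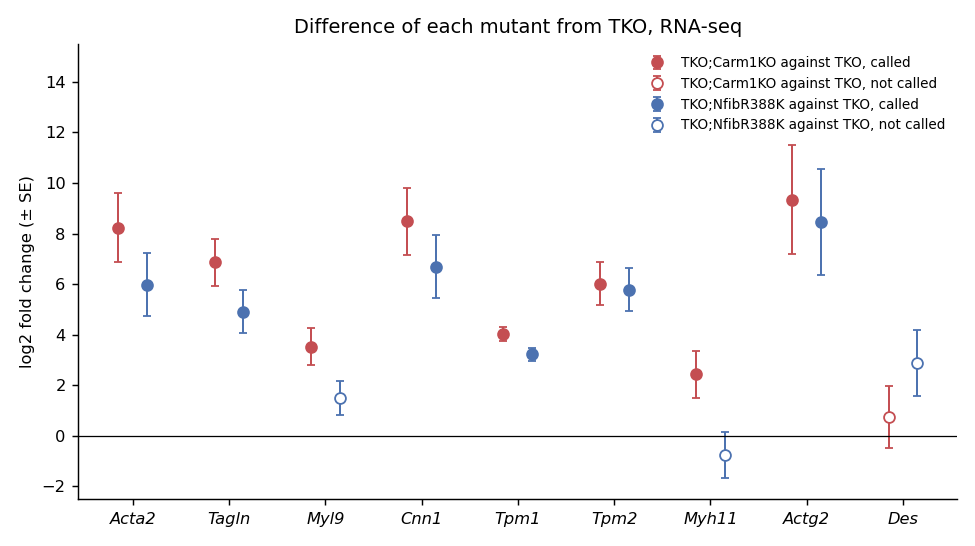
Log2 fold change of the 9 tested members in each mutant against TKO, with the standard error from edgeR's fit of all 9 libraries; filled points were called. All called values are above 0, and Myl9, Myh11 and Des were not called in NFIB mutant tumors.

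Per kb of exon, the scale on which genes can be set against each other, Acta2 led in CARM1 knockout at 399 ± 279 CPM per kb (SD, n = 3), followed by Tpm1 at 224 ± 51.3, Tagln at 114 ± 42.0, Myl9 at 96.7 ± 38.6 and Tpm2 at 84.7 ± 31.6. The ranges of Acta2 and Tpm1 overlapped, as did those of Tagln, Myl9 and Tpm2, whereas Tpm1 was above Tagln in every library. Cnn1 at 28.8 ± 9.59 and Actg2 at 15.3 ± 10.01 came next, and Myh11 at 0.455 ± 0.487 and Des at 0.377 ± 0.518 were far below. In NFIB mutant tumors Tpm1 came first at 129 ± 10.7 CPM per kb and Acta2 second at 83.8 ± 76.6, with each neighbour overlapping the next down to Des at 1.65 ± 0.497. In TKO only Tpm1 (13.8 ± 3.65) and Myl9 (8.45 ± 3.22) exceeded the next gene in order, Acta2 (1.33 ± 1.51), in all libraries.

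The mutants were then compared with each other. No gene of 15514 was called between CARM1 knockout and NFIB mutant (0% of genes) by edgeR's quasi-likelihood test, 1414 had an unadjusted p under 0.05, and DESeq2 called 535. CARM1 knockout had the higher fitted level in 8 of the 9 tested members, with Des the exception, and 4 members (Tagln, Myl9, Tpm1 and Myh11) had an unadjusted p under 0.05. Over all tested genes the median log2 difference was 0.01. The members were measured in the same libraries and are not independent of each other. The differences were 2.25 ± 1.03 for Acta2, 1.94 ± 0.73 for Tagln, 2.02 ± 0.69 for Myl9, 1.80 ± 0.95 for Cnn1, 0.80 ± 0.25 for Tpm1 and 0.23 ± 0.68 for Tpm2 on the log2 scale, the last changing sign in 2 of 16 alternatives. None passed the adjusted threshold, the smallest adjusted p being 0.5003 for Myh11, which DESeq2 alone called (3.22, adjusted p = 0.0469).

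The members were summarised by their mean across the 6 mutant libraries, and correlations between members were not computed. Not every member followed this mean, among them Tpm1, highest in CARM1 knockout replicate 2, and Des, highest in NFIB mutant replicate 3. The mean of the 9 tested members, each centred on its own mean in log2 CPM, was highest in CARM1 knockout replicate 3 (1.30) and replicate 1 (0.93), then NFIB mutant replicate 3 (0.47) and CARM1 knockout replicate 2 (-0.12), and lowest in NFIB mutant replicates 2 (-1.09) and 1 (-1.49). Of 6407 other genes with a mean of at least 5 log2 CPM in the mutants, those most like this profile were Ttc9c (Pearson r = 0.98), Thumpd1 (0.98), Bccip (0.97), Lsp1 (0.96) and Serpinh1 (0.95). With 6 libraries that share 2 genotypes and this many genes ranked, high coefficients arise among many genes, and they are given as a description. Serpinh1, a collagen chaperone, spanned 710 to 1747 CPM, and Ttc9c 61.2 to 78.1 CPM.

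Partner genes of the contractile filament changed with the members. Of 30 other contractile and SRF target genes, 27 were tested, and the calls were 16 up and 2 down in CARM1 knockout and 18 up and 2 down in NFIB mutant. Over all tested genes, 20.5% and 22.3% were called higher and 18.3% and 23.5% lower. The median log2 fold change of these partners was 1.80 and 1.57, beside -0.03 and -0.05 over all genes. The largest rises common to both were Flnc, an actin crosslinker (3.93 ± 3.27 CPM in TKO, 269 ± 33.7 for CARM1 knockout, 469 ± 374 for NFIB mutant, SD, n = 3), Lmod1, an actin nucleator of smooth muscle (0.137, 17.8 and 1.82 CPM on average), and Synpo2 (0.271, 2.96 and 3.43 CPM). Synm, an intermediate filament protein, and Fhl1, a LIM-domain protein of muscle, were called lower in both mutants. Synm had 1.73, 16.7 and 42.5 CPM in TKO and overlapped with both mutants, at 0.678 to 1.97 CPM in CARM1 knockout and 1.17 to 6.93 CPM in NFIB mutant (adjusted p = 0.039 and 0.093). Fhl1 fell without overlap from 151 to 203 CPM in TKO to 21.6 to 95.2 CPM in the mutants. The smooth muscle genes Casq2, Kcnmb1 and Pdlim3 did not pass the filter, and Kcnmb1 reached 3.18 CPM in NFIB mutant replicate 3.

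Among the regulators, SRF and 1 of its coactivators rose modestly. Srf was at 56.7 to 57.8 CPM in TKO, 104 to 136 in CARM1 knockout and 96.5 to 106 in NFIB mutant tumors, a log2 fold change of 1.03 ± 0.14 (adjusted p = 0.00223) and 0.84 ± 0.14 (adjusted p = 0.00341). Mrtfa was at 36.6 to 37.0 CPM in TKO and 100 to 173 CPM in the mutants, a log2 fold change of 1.94 ± 0.20 (adjusted p = 0.000816) and 1.75 ± 0.20 (adjusted p = 0.000857), while Mrtfb differed by 0.48 ± 0.27 and 0.53 ± 0.27 and was not called. Of 18 regulators, 16 were tested and 9 were called higher in each mutant, none lower, beside 20.5% and 22.3% of all genes called higher. Prrx1, Tbx18 and Notch3 had the largest rises. Prrx1 and Tbx18 are transcription factors of mesenchyme and of mural cells, and Prrx1 went from 0.354 to 7.25 CPM in TKO to 244 to 1012 CPM in the mutants. Among upstream signalling genes, Ednra, an endothelin receptor, rose from 0.131 to 0.31 CPM in TKO to 3.08 to 27.8 CPM in the mutants. Also called higher in both mutants were Ccn2, a TGF-beta and YAP target (1.63 CPM in TKO, 86.3 in CARM1 knockout, 38.6 in NFIB mutant), and Tgfbr2, the type II TGF-beta receptor (8.19, 326 and 259 CPM).

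Of 16 non-muscle or striated paralogs of the members, 14 were tested, with 9 called higher and 1 lower in CARM1 knockout and 8 higher and 1 lower in NFIB mutant, beside 20.5% and 22.3% of all genes called higher. Their median log2 fold change was 1.30 and 1.37, against 6.02 and 4.92 for the members. Cnn2 (5.33, 497 and 468 CPM on average in TKO, CARM1 knockout and NFIB mutant), Tagln2 (46.5, 1042 and 945 CPM) and Myl12a (75.5, 538 and 626 CPM) led. Actb went from 1080 to 2810 and 3081 CPM, and the sarcomeric actins Acta1 and Actc1 averaged under 0.9 CPM in each genotype.

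Markers of other cell types were read in the same libraries. Over all tested genes, 20.5% and 22.3% were called higher in CARM1 knockout and NFIB mutant, and 18.3% and 23.5% lower. The 6 fibroblast markers summed to 11.2 to 63.4 CPM in TKO, 14460 to 25790 in CARM1 knockout and 9479 to 15920 in NFIB mutant tumors, with 6 and 5 of 6 called higher, and the summed members went from 85.6 to 148 CPM to 2595 to 3573 and 1116 to 1776 CPM. Of the 8 pericyte markers 7 were tested and 2 were called higher in each mutant, a share near that of all genes. Their sums were 9.53 to 15.9, 470 to 942 and 196 to 694 CPM, in the mutants mostly Pdgfrb, which was called in both. Ndufa4l2 was called in CARM1 knockout alone (1.22, 32.1 and 1.91 CPM, against 0.787 to 1.24 in TKO). Kcnj8 was called in NFIB mutant alone (41.2, 7.64 and 0.89 CPM, against 0 to 0.31 in TKO). Rgs5 and Higd1b stayed under 1.4 CPM on average. Of the 12 airway and vascular smooth muscle markers, 3 are members (Actg2, Myh11, Cnn1). In all 9 were tested, with 6 calls up and 1 down in CARM1 knockout and 5 up in NFIB mutant. Their sums were 9.75 to 102, 80.3 to 342 and 36.9 to 124 CPM. Rgs4 made up 98.9 of the 102 CPM in TKO replicate 3 and 176 of the 342 CPM in CARM1 knockout replicate 3. Sost and Pln were at or near 0. Of 14 striated and cardiac muscle markers only 4 were tested, and 2 of these were called lower in NFIB mutant and none otherwise. The sums of all 14 stayed between 1.29 and 20.3 CPM in all libraries, with Ckm at 0 in all 9. Of 6 mesothelial markers 3 were tested and only 1 was called higher in each mutant. Their sums ran from 0.576 to 49.2 CPM in TKO, from 8.54 to 120 CPM in CARM1 knockout and from 99.7 to 814 CPM in NFIB mutant tumors. Krt19, a keratin also of lung epithelium, made up 719.6 of the 814 CPM in NFIB mutant replicate 1, and Upk3b was at 0 in all but NFIB mutant replicate 3 (1.21 CPM).

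The neuroendocrine markers that define this cancer went the other way. They summed to 1997 to 3989 CPM in TKO and 38.9 to 114 CPM in NFIB mutant tumors (10 of 12 called lower), and to 59.7, 236 and 1988 CPM in CARM1 knockout replicates 1, 2 and 3 (1 of 12 called lower). Over all tested genes, 23.5% and 18.3% were called lower in NFIB mutant and CARM1 knockout, and 22.3% and 20.5% higher. In CARM1 knockout replicate 3, which had the highest sum of the members (3573 CPM), Calca made up 833 of the 1988 CPM, against 5.14 to 21.96 CPM in TKO. Resp18 was also above every TKO library there (92.3 CPM against 9.47 to 22.4). Chga (210 CPM), Dll3 (13.9 CPM) and Scg2 (110 CPM) lay within the range of the TKO libraries. The remaining markers there were below every TKO library, such as Uchl1 (181 CPM against 387 to 425) and Insm1 (83.9 CPM against 254 to 326). The lung epithelial markers, 9 of 10 tested, were uneven (15.7 to 50.3 CPM in TKO, 3.73 to 779 in CARM1 knockout and 5.08 to 2740 in NFIB mutant, 4 called higher and 1 lower in the last, 1 lower in CARM1 knockout), with NFIB mutant replicate 1 the highest. Of 12 leukocyte markers 10 were tested, with 8 and 4 called higher (sums of 4.17 to 59.5, 256 to 2830 and 82.9 to 1143 CPM). The T cell gene Cd3e was at 0 in all 9 libraries. Endothelial markers stayed at 0.486 to 17.4 CPM with Emcn and Cldn5 at 0 in all libraries. The part of other cells in the rise of the members was not tested. Leaving out CARM1 knockout replicate 3 leaves 8 members called in CARM1 knockout, and leaving out NFIB mutant replicate 1 gives 7 in NFIB mutant.

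**Figure D3:**
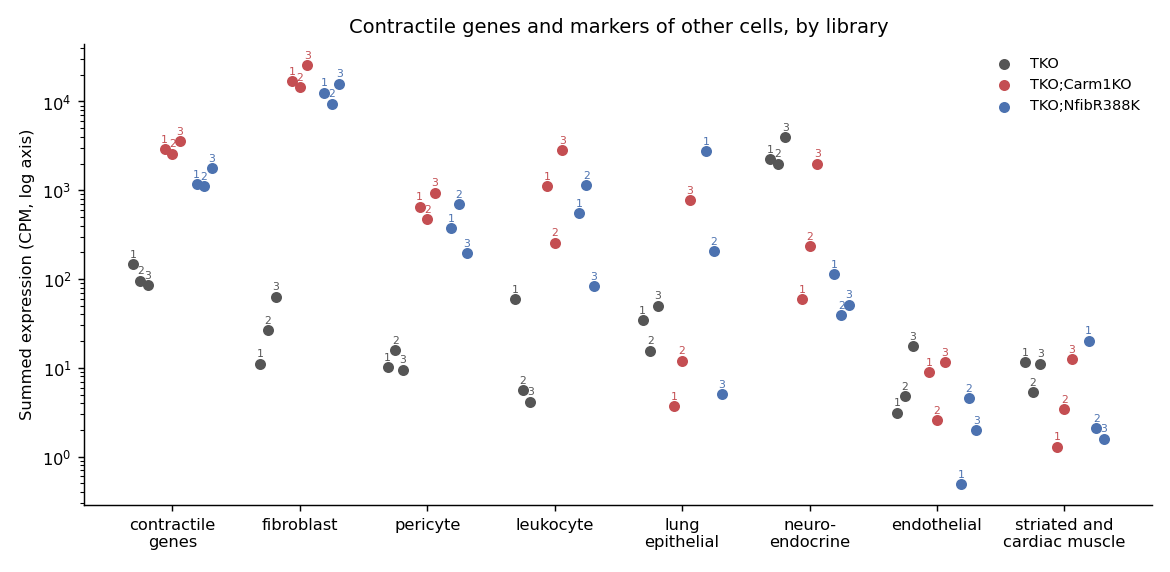
Summed expression of the 10 contractile genes and of marker lists in each RNA-seq library (CPM on a log axis), numbered by replicate. The fibroblast sum rises with the members in all 6 mutant libraries, the striated muscle and endothelial sums stay at or below 20.3 CPM, and the neuroendocrine sum of 1988 CPM in CARM1 knockout replicate 3 includes 833 CPM of Calca.

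Chromatin at the members was compared next. ATAC-seq counts were tested on 111116 peaks, of which 71.1% were called in CARM1 knockout against TKO (38.7% higher, 32.4% lower) and 73.3% in NFIB mutant against TKO (39.3% higher, 34% lower). All 37 peaks of the members were tested, with 26 up and 6 down in CARM1 knockout and 22 up and 7 down in NFIB mutant. In 12 of the 14 peaks of Tpm1 and 3 of the 4 of Acta2 all 6 mutant libraries exceeded all TKO libraries, against 33.1% of all peaks. By library totals alone the members' peaks gave 29 higher and 4 lower, and 28 and 5. That scaling moves the median log2 fold change over all peaks from 0.22 to 0.79 in both comparisons and the higher share of all calls from 54.4 to 65.9% and from 53.6 to 64.3%. Between the mutants edgeR's test called 0 of the 37 peaks (0% of all peaks), with 1 at an unadjusted p under 0.05 and none called by DESeq2, beside 6813 and 1060 of all peaks. Peaks within a gene are not independent measures, as 14 of the 37 lie in Tpm1.

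**Figure D4:**
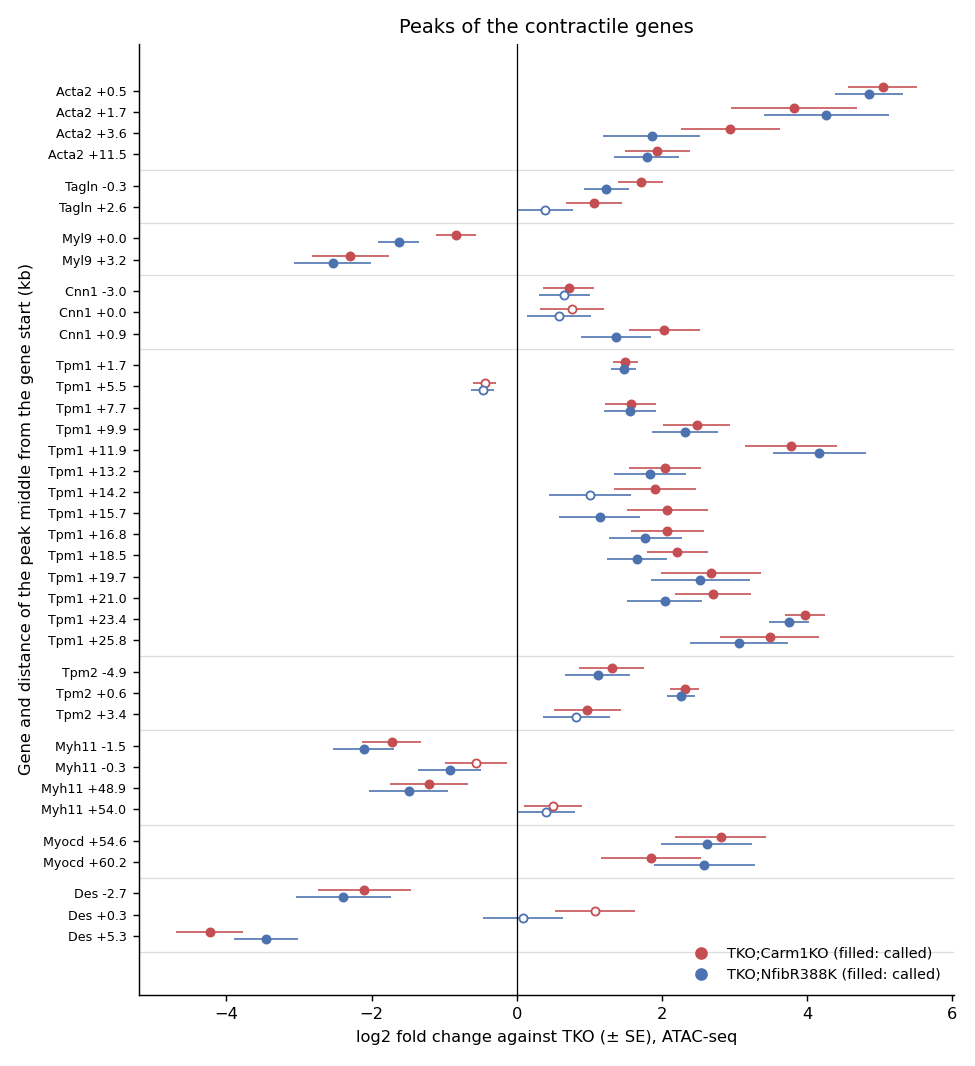
Log2 fold change (with its standard error) of each of the 37 peaks in both mutants against TKO, grouped by gene and ordered by the distance of the peak middle from the gene start in kb; filled points were called. Peaks of Acta2, Tagln, Cnn1, Tpm2 and 13 of 14 of Tpm1 lie above 0, those of Myl9 lie below it, and Actg2 has no peak.

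Acta2 opened at its start. The peak over the start (1953 bp, holding both CArG-like elements printed above) had 0.797, 0.278 and 0.718 CPM in TKO, 20.7, 15.1 and 23.2 CPM in CARM1 knockout and 12.7, 13.4 and 25.8 CPM in NFIB mutant tumors. No mutant library came near TKO, and the log2 fold change was 5.04 ± 0.47 (adjusted p = 3.34e-05) and 4.86 ± 0.47 (adjusted p = 3.31e-05), the largest rises among the 37 peaks. The other 3 peaks of Acta2, all intronic, were called higher in both mutants too.

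Tpm1 opened over most of its length. Its start peak, 5477 bp long, rose from 14.6 to 16.5 CPM in TKO to 34.8 to 51.6 CPM in the mutants, a log2 fold change of 1.495 ± 0.17 and 1.47 ± 0.17. An intronic peak 11941 bp from the start had 0.287, 0.556 and 0.0845 CPM in TKO and 2.88 to 6.99 CPM in the mutants, a log2 fold change of 3.78 ± 0.63 (adjusted p = 0.00066) and 4.17 ± 0.64 (adjusted p = 0.000368). One deeper intronic peak, 23358 bp from the start and named here after its values were seen, went from 1.48 to 2.24 CPM to 19.1 to 30.2 CPM. In contrast, the peak at 5453 bp, also named after its values were seen and with its middle 9 bp from an annotated transcript start, was the strongest of the gene in TKO (37.2 to 39.5 CPM). It was lower in all 6 mutant libraries (23.3 to 32.3 CPM) by 0.44 ± 0.16 and 0.47 ± 0.16 on the log2 scale, under the size needed for a call (adjusted p = 0.0299 and 0.0219).

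**Figure D5:**
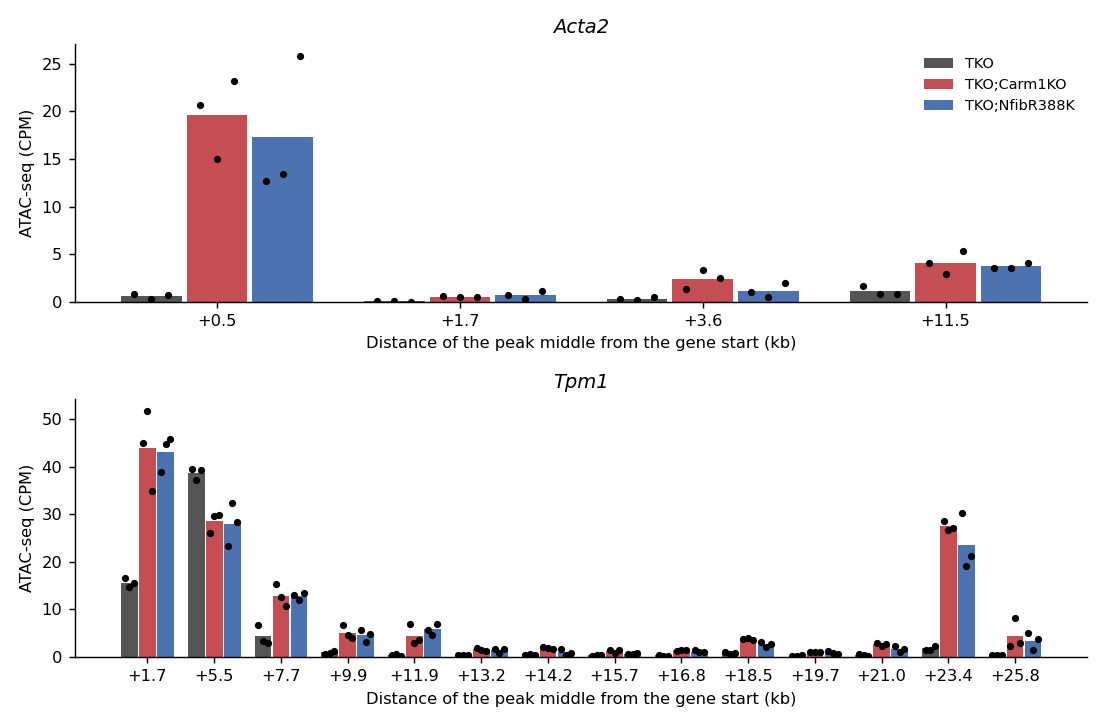
ATAC-seq level (CPM) of the peaks of Acta2 and Tpm1 by distance of the peak middle from the gene start in kb; bars are means of 3 libraries and points are libraries. Acta2 gains mainly at its start, while Tpm1 has higher means in both mutants at 13 of 14 peaks and is lower in the mutants at the peak 5453 bp from the start.

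Tpm2, Tagln and Cnn1 opened as well, the last least. The start peak of Tpm2 rose from 6.58 to 8.70 CPM in TKO to 31.2 to 42.0 CPM in the mutants (log2 fold change 2.32 ± 0.20 and 2.26 ± 0.20). That of Tagln had 4.94, 5.84 and 5.32 CPM in TKO, 20.9, 13.6 and 18.1 CPM in CARM1 knockout and 9.95, 9.89 and 18.0 CPM in NFIB mutant tumors. Tagln differed by 1.71 ± 0.31 and 1.23 ± 0.31, both called. At Cnn1 the peak over the start was low (1.43 to 1.82 CPM in TKO, 1.25 to 2.96 CPM in the mutants) and was not called in either mutant (0.77 ± 0.44 and 0.58 ± 0.44), while its RNA rose, but it was called higher in both with library totals alone (1.33 and 1.14). The intronic peak of Cnn1 922 bp from the start, which holds the exact CArG box printed above 12 bp before its middle, went from 0.383, 0.587 and 0.634 CPM to 1.40 to 2.78 CPM in CARM1 knockout and 1.06 to 1.65 CPM in NFIB mutant tumors and was called in both (2.04 ± 0.49 and 1.37 ± 0.48). The middle of this peak lies 54 bp from another annotated transcript start of Cnn1. The peak of Cnn1 with the highest mean, 3047 bp upstream, differed by 0.72 ± 0.35 in CARM1 knockout (adjusted p = 0.0902), a call lost in 10 of 17 alternatives, leaving out any 1 of the TKO or CARM1 knockout libraries among them. In NFIB mutant it differed by a like 0.66 ± 0.35 (adjusted p = 0.113), which was called in 4 of 17 alternatives, and the mutants differed from each other by 0.06 ± 0.34.

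At Myl9 chromatin and RNA differed in direction. The peak over its start, which holds the exact CArG box, had 29.2, 22.5 and 22.3 CPM in TKO, 16.5, 10.6 and 14.3 CPM in CARM1 knockout and 6.43, 6.52 and 10.9 CPM in NFIB mutant tumors. All mutant libraries were below TKO, by 0.84 ± 0.28 (adjusted p = 0.0212) and 1.63 ± 0.28 (adjusted p = 0.000726) on the log2 scale, although Myl9 RNA was higher in CARM1 knockout. In CARM1 knockout this call is lost with library totals alone (-0.26) and with scaling by the start sites of evenly expressed genes (-0.45). The peak 3153 bp into the gene fell further, from 38.8, 13.7 and 10.1 CPM in TKO to 2.60 to 6.22 CPM in the mutants (log2 fold change -2.29 ± 0.53 and -2.54 ± 0.53), and its middle lies 56 bp from another annotated transcript start.

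The called peaks of Myh11 and Des were all lower, and those of Myocd were higher with its RNA at or about the detection limit. An uncalled peak of Myh11, 53954 bp into the gene, went from 1.275 to 1.95 CPM in TKO to 2.1 to 2.84 CPM in the mutants. Des RNA, though not called, was higher in every NFIB mutant library than in any TKO library, unlike its called peaks. Myh11 had its clearest change 1488 bp upstream, where 9.24, 6.98 and 4.48 CPM in TKO became 1.40 to 2.23 CPM in the mutants (log2 fold change -1.72 ± 0.41 and -2.11 ± 0.41). Its peak nearest the start was called lower in NFIB mutant (-0.93 ± 0.43, adjusted p = 0.0762), a call lost in 8 of 17 alternatives, with the value at -0.31 (adjusted p = 0.533) under library totals alone, and also without TKO replicate 1 or 2 or NFIB mutant replicate 1 or 2. Des had a peak 5339 bp into the gene at 7.08, 7.48 and 4.01 CPM in TKO that was at 0.307 to 0.339 CPM in CARM1 knockout and 0.529 to 0.598 CPM in NFIB mutant tumors, a log2 fold change of -4.23 ± 0.46 (adjusted p = 6.82e-05) and -3.45 ± 0.44 (adjusted p = 0.000135). Its peak nearest the start, at 0.412 to 2.35 CPM in all libraries, was not called in either mutant, although in CARM1 knockout it was called higher with library totals alone (1.64) and in 6 other alternatives. Myocd had no peak near its start, and of its 2 intronic peaks, 54587 and 60232 bp into the gene, both were called higher in both mutants, the first from 0.319, 0.525 and 0.887 CPM to 1.78 to 5.89 CPM. No peak overlapped Actg2 or its 5000 bp upstream, so the rise of that gene has no chromatin value here.

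In the middle 300 bp of the peaks, an exact CArG box was found in 1 of 37 peaks of the members and in 1.54% of all 111664 peaks, and one with at most 1 differing letter in 7 of 37 (18.9%) and 21.9%. The full NFI site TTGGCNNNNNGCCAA was found in none of the 37 and in 0.1% of all peaks. The AP-1 site TGANTCA was in 6 of 37 (16.2%) against 23.7%, and the TEAD site GGAATG in 8 of 37 (21.6%) against 19.1%. Both strands were searched, and an exact CArG box counts also as a near match, a search added after the data were seen. Within the 300-base promoters, GGAATG was in those of Acta2 and Tpm1 (14.7% of all promoters), and neither TGANTCA (7.81% of all) nor the NFI site was in any of the 6.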

How the data were processed

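RNA-seq and ATAC-seq were deposited as tables of raw counts, and the authors pooled no replicates. Per the labels and methods, RNA reads were trimmed with Trim Galore, aligned to mm10 (GRCm38) with HISAT2 and counted with HTSeq. ATAC reads were aligned with Bowtie2, duplicates were removed, peaks were called and merged into 1 set, putative copy-number altered regions were removed, and the authors counted reads per peak with featureCounts. Column headings gave C for TKO, KO for TKO;Carm1KO and N for TKO;NfibR388K, a reading that rests on the letters.

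Rows that name no gene were left out of library sizes (3.65 to 12.2% without a gene). Counts were filtered by expression, scaled by TMM and fitted with edgeR 4.0.16 (robust quasi-likelihood, all 9 libraries of an assay, no block) in R 4.3.3, with Benjamini-Hochberg adjustment over all features. SE were derived from the fold change and its F statistic. The fits were tested on simulated data. Alternatives were DESeq2 1.42.0, other scalings and filters, the 2 genotypes alone, a replicate block and leaving out each library. Gene models were GENCODE and promoters RefSeq (GRCm38.p6). Counting error limits low values, since 3 counts set the detection floor.

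Named were all 10 members, for each gene the peaks nearest the start, with the highest mean and with the largest change, and in each list the genes most changed in both mutants. Srf, Mrtfa, Mrtfb, Actb and single markers were named besides, after their values were seen. The members and lists were chosen with earlier results of these data known. The labels do not say whether replicates share an extraction, so p-values measure the spread between these samples. The counts of 1 further gene list and 1 further marker are not reported here.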

Additional observations from a re-analysis of the deposited data

How the results depend on the processing

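No result changed direction with its call. Requiring at least 10 counts in every library left 5 members tested, all 5 called in CARM1 knockout. DESeq2 called 1 member between the mutants. Of the 8 peaks with the middle within 1000 bp of a gene start, calls were 5 for CARM1 knockout and 6 for NFIB mutant. Leaving out 1 library gave 7 to 8 members for CARM1 knockout, 6 to 7 for NFIB mutant and 0 between the mutants, and 29 to 32, 26 to 30 and 0 peaks. With a replicate block, 7, 6 and 0 members and 29, 27 and 0 peaks were called. The replicate numbers did not pair the libraries, with correlations of same-numbered libraries of -0.297 to 0.118 in RNA-seq and -0.142 to 0.118 in ATAC-seq. Over 27 gene results, 400 of 416 alternatives kept direction and side of the threshold, 7 lost and 9 gained a call, and over 45 peak results 722 of 759 did, with 20 lost and 17 gained. Depth limits Myocd, Actg2 and Cnn1 in TKO.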
